A study of Mus musculus with 6 samples.

Results

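The genes described here encode the enzymes and regulators by which a cell makes cholesterol and fatty acids. They were taken by symbol from a list of 32 genes drawn up by function, with earlier results of these data known, and 30 of them were among the 14228 genes of the deposited table (Idi1 and Fdft1 were not). The data were RNA counts of fibroblasts sorted from mouse stomachs, with 3 libraries from stomachs with cancer (cancer-associated fibroblasts, CAF) and 3 from control stomachs (normal fibroblasts). All mice carried the same transgenes, the triple-transgenic iLgr5;GLI2A combination, in which an active form of the Hedgehog pathway factor GLI2 can be switched on in Lgr5-expressing epithelial stem cells, and their age was given as 8 weeks. CAF mice received tamoxifen in corn oil by gavage for 5 days and then doxycycline chow for 3 weeks, and for the first 3 of those days the drug was also in their sweetened water. Normal mice received corn oil and neither drug, so that drug effects and cancer effects cannot be told apart. CAF libraries 1, 2 and 3 held cells of 1, 2 and 2 mice, and normal libraries 1, 2 and 3 held cells of 1, 1 and 2 mice. Live podoplanin-positive cells were sorted after removal of CD31-positive, CD45-positive and EpCAM-positive cells, and RNA was counted at its 3′ ends by MARS-seq.

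Cholesterol is built from acetyl-CoA through mevalonate to squalene, which is closed into lanosterol and trimmed to cholesterol in a series of steps in the endoplasmic reticulum. The same acetyl-CoA feeds the synthesis of palmitate and of the longer and unsaturated fatty acids made from it. The factor SREBP-2, encoded by Srebf2, is known to drive the sterol genes and SREBP-1, encoded by Srebf1, the fatty acid genes. Both are carried out of the endoplasmic reticulum by the sterol sensor Scap when sterols are scarce and are held back by Insig1 when they are plentiful.

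Total counts ranged from 644522 to 6422568 across the CAF libraries and from 768420 to 3259644 across the normal libraries. CAF library 1 and normal library 3 were the shallowest of their groups, though normal library 2, with 903176 counts, was nearly as shallow as normal library 3. Marker genes of gastric gland cells (24 genes, of chief, parietal, enteroendocrine and pit and neck cells) made up 0.594%, 0.86% and 0.605% of counts in CAF libraries 1, 2 and 3 compared with 19.9%, 16.2% and 4.17% in normal libraries 1, 2 and 3. The 13 fibroblast markers made up 1.25%, 3.33% and 4.06% across the CAF libraries and 0.541%, 1.09% and 2.11% across the normal libraries. Among these markers Col1a1 and Pdgfra had at least 225 and 60 counts in each of the 6 libraries. Pdpn, which encodes the podoplanin used to select cells, had 19, 876 and 880 counts across the CAF libraries and 14, 27 and 15 across the normal libraries. Counts of single genes in this paragraph are raw and not scaled for depth. For Pdpn, CAF library 1 (19 of 644522 counts) and normal library 2 (27 of 903176 counts) were alike. Epcam, the marker of the cells removed in the sort, had 159, 917 and 844 counts across the CAF libraries and 367, 62 and 11 across the normal libraries. Relative to total counts it was higher in every CAF library (lowest in CAF library 3, 844 of 6421010) than in every normal library (highest in normal library 1, 367 of 3259644). The 8 adipocyte markers in the table made up 0.0115%, 0.0212% and 0.0265% across the CAF libraries and 0.00733%, 0.0104% and 0.00599% across the normal libraries. Among them Adipoq had 1, 57 and 88 counts across the CAF libraries and 0, 2 and 0 across the normal libraries, and Cidec had 0, 12 and 16 counts across the CAF libraries and 7, 3 and 3 across the normal libraries. In such sorted bulk samples fewer cells of a type and less RNA per cell cannot be told apart. Libraries also differed in how gene levels followed the GC content of the transcript's last 500 bases. Each log2 level was taken minus the gene's mean over the 6 libraries, so signs are relative to the other libraries. The rank correlation across 8098 genes was 0.34, -0.41 and -0.42 in CAF libraries 1, 2 and 3 compared with 0.18, -0.19 and 0.23 in normal libraries 1, 2 and 3, given as a description because the genes share a library.

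No gene of cholesterol or fatty acid synthesis differed between CAF and normal fibroblasts past the threshold. In the quasi-likelihood test of edgeR, adjusted over 10148 genes by the Benjamini-Hochberg method, 0 of the 28 members that passed the filter on low counts had an adjusted p under 0.05, against 1.10% of all genes tested, and the smallest adjusted p was 0.253. At an unadjusted p under 0.05, 4 members were lower in CAF (Mvk, Insig1, Scap and Dhcr7), against a background of 7.97% of genes, and 0 were higher, against 7.37%. The log2 fold change of CAF over normal was negative for 17 and positive for 11 members, with a median of -0.12, beside a median of 0.06 over all genes tested. The levels of 3 members (Mvk, Scap and Insig1) lay below those of all normal libraries in all CAF libraries, against 9.35% of all genes tested, and 0 lay above, against 10.6%. The 4 and the 3 members are 14.3% and 10.7% of the 28, and 0 members passed by DESeq2, which called 6.57% of all genes, or by limma-voom, which called 0.641%. In the authors' deposited table, 0 of 30 members had an adjusted p under 0.05, against 6.37% of all genes, and 5 had an unadjusted p under 0.05, against 15.7%, with a smallest adjusted p of 0.16 for Scap. Each of the 28 intervals (95%) reached past a log2 fold change of 1 or -1, so equal expression is not shown.

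Libraries of the same group differed from each other by more than the groups did for most members. On the log2(CPM + 1) scale, where CPM is edgeR's count scaled for library size, the range within at least 1 group exceeded the difference between group means for 26 of 30 members, and within both groups for 19. The same count was not made over all genes, so it describes the members and does not set them apart from other genes. Without CAF library 1 and normal library 3, 4 members passed (Hmgcs1, Mvk and Dhcr7 lower and Scd2 higher in CAF), in a fit in which 19.4% of all genes passed. Without normal library 3 alone 1 member passed, Hmgcs1, beside 10.0% of all genes. Without normal libraries 1 and 2, the libraries with the most gland RNA, 0 members passed, beside 0.00% of all genes, although 1271 genes had an unadjusted p under 0.05. That fit has 1 normal library, assumed to vary like the CAF libraries, so its count of 0 says little.

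**Figure D1:**
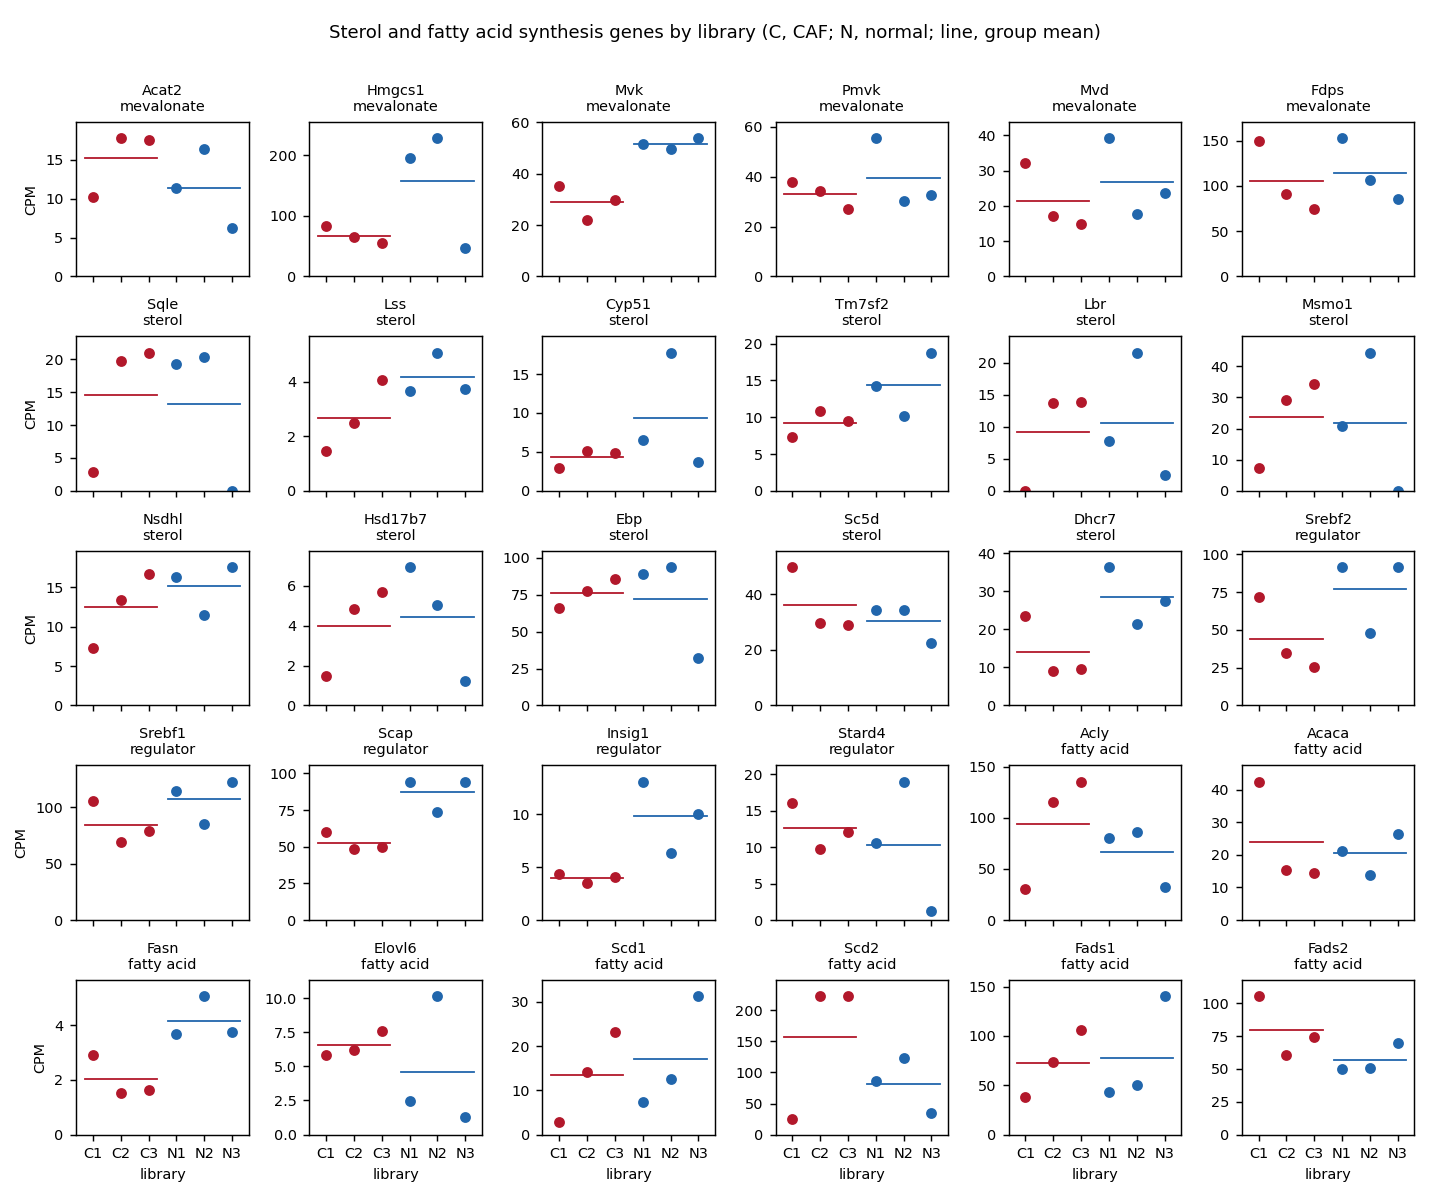
Level of each of the 30 members in the 6 libraries, in CPM on an axis that starts at 0, with CAF libraries (C1 to C3, red) left of normal libraries (N1 to N3, blue) and a line at each group mean. Points of Mvk, Scap, Insig1 and the low-count Fasn separate by group, while Sqle, Msmo1, Lbr, Scd2 and Acly vary as much within a group as between groups.

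Among the mevalonate genes 5 of 6 tested members had a negative fold change, with 0 passing and a median log2 fold change of -0.35. Mvk, mevalonate kinase (mm10 chromosome 5, 114444269 to 114460591), had 35.1, 21.9 and 29.6 CPM in CAF libraries 1 to 3, against 51.4, 49.4 and 53.8 CPM in normal libraries 1 to 3. All CAF values lay below all normal values, and the 3 normal libraries were close to each other. CAF over normal gave a log2 fold change of -0.86 ± 0.32 (SE; 95% interval -1.59 to -0.12, adjusted p = 0.253 by edgeR), or 1.81-fold lower in CAF. It was -0.87 against normal library 3 alone, a value given without a test because 1 normal library is left. In the libraries with a positive correlation with GC content (CAF 1 and normal 1 and 3) the log2 difference of means (0.5 CPM added) was -0.58, and in those with a negative one (CAF 2 and 3 and normal 2) -0.92.

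Hmgcs1, which makes HMG-CoA early in the pathway (chromosome 13, 119690379 to 119708260), had 83.4, 64.6 and 54.4 CPM across the CAF libraries and 195, 228 and 47.5 CPM across the normal libraries. Its high values were in normal libraries 1 and 2, where the gland share was 19.9% and 16.2%, and normal library 3, with a gland share of 4.17%, lay below all CAF libraries. The part of gland RNA in the difference was not tested. The log2 fold change was -1.23 with an SE of 0.55 (adjusted p = 0.346 by edgeR), and it was 0.54, with the direction turned, without normal libraries 1 and 2. Without normal library 3 it was -1.73 (adjusted p = 0.0149 by edgeR). In that fit 10.0% of all genes passed, against 1.10% with all libraries, so the changed call is not particular to Hmgcs1. A covariate for the number of pooled mice brought it to -0.52.

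Of the other mevalonate genes, Acat2, the thiolase that joins acetyl-CoA units, had 15.2 ± 4.3 CPM in CAF, against 11.4 ± 5.11 CPM in normal fibroblasts (SD, n = 3 each). Pmvk and Mvd, the next kinase and the decarboxylase, had 33.1 ± 5.65 and 21.4 ± 9.43 CPM in CAF, against 39.5 ± 13.9 and 26.9 ± 11.1 CPM in normal fibroblasts. Fdps, farnesyl diphosphate synthase, had 105 ± 39.3 CPM in CAF, against 115 ± 34.5 CPM in normal fibroblasts. Its value is uncertain, because 90.8% of the 40-base words in the last 1000 bases of its transcript also occur in other annotated genes, most of them predicted genes. Acat2 shared 18.6% of these words with Acat3. Adjusted p lay above 0.7 for these 4 genes by edgeR, and all their groups overlapped.

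The 250 bases before and 50 bases after a transcription start, from the RefSeq table of build GRCm38.p6, were matched by symbol for 24 of the 30 members, with 30 windows in all. They are shown for the 3 tested members whose groups did not overlap and for Hmgcs1, which had the widest gap of means among the mevalonate genes, written 5′ to 3′ in lower case with motif matches in capitals. The motifs were the sterol regulatory element TCACNCCAC, bound by SREBP, the CCAAT box, bound by NF-Y, which works with SREBP, and the E-box CACGTG, each searched on both strands. No match of these motifs overlapped another in the windows shown.
Mvk, chr5:114444019-114444318, plus strand: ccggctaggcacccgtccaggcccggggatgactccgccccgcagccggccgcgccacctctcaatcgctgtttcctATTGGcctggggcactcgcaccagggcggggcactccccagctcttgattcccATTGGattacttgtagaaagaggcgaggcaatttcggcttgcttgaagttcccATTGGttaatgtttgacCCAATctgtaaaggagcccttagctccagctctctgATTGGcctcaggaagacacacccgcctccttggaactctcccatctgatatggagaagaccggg
Hmgcs1, chr13:119690101-119690400, plus strand: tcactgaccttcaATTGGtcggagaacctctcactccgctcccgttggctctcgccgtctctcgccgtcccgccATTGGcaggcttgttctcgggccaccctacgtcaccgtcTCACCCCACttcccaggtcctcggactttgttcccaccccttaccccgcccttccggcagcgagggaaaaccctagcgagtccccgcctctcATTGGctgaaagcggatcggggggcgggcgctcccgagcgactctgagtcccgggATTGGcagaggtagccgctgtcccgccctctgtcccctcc
Scap, chr9:110333038-110333337, plus strand: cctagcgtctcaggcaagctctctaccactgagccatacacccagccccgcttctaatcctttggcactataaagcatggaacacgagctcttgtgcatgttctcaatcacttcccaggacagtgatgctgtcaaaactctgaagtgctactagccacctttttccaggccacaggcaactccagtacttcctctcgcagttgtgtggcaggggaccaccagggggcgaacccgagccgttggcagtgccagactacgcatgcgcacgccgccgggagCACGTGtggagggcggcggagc
Insig1, chr5:28071162-28071461, plus strand: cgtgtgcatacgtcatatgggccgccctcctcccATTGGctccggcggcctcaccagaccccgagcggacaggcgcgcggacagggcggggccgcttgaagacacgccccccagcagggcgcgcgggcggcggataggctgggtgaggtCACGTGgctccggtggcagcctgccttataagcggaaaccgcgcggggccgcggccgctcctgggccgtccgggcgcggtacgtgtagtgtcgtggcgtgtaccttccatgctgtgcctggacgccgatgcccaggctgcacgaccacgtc

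The window of Mvk held 5 CCAAT boxes and that of Hmgcs1 held 4 CCAAT boxes and 1 sterol regulatory element. Insig1 had 1 CCAAT box and 1 E-box, and Scap had 1 E-box. A CCAAT box was present for 19 of the 24 matched members, among them all 10 matched genes of the steps from squalene to cholesterol, 4 of 5 mevalonate genes, 3 of 4 regulators and 2 of 5 fatty acid genes. Over all 32851 RefSeq windows, 37.4% held a CCAAT box, 7.15% an E-box and 1.24% the sterol regulatory element. Among member windows 66.7% held a CCAAT box, 20.0% an E-box and 3.33% the sterol regulatory element, which was found for Hmgcs1. A match describes letters in a window and is no measured binding.

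Of the regulators 4 of 5 had a negative fold change, with 0 passing and a median log2 fold change of -0.74. Scap, which escorts the SREBP precursors to the Golgi (chromosome 9, 110333288 to 110384950), had 60.0, 48.3 and 49.8 CPM across the CAF libraries, against 94.3, 73.5 and 93.8 CPM across the normal libraries. All CAF values lay below all normal values, with a gap between the highest CAF and the lowest normal library. The log2 fold change was -0.74 ± 0.28 (SE; 95% interval -1.39 to -0.08, adjusted p = 0.268 by edgeR). Against normal library 3 alone it was -0.79, again without a test, and within the libraries on either GC side the difference was -0.64 and -0.58.

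Insig1, which holds the complex of Scap and SREBP in the endoplasmic reticulum and is itself a known SREBP target (chromosome 5, 28071363 to 28078662), had 3, 25 and 30 counts across the CAF libraries and 32, 5 and 8 across the normal libraries. These were 4.39, 3.45 and 4.06 CPM in CAF, against 13.1, 6.33 and 10.0 CPM in normal fibroblasts. All CAF values were below all normal values, but 3 libraries rest on 8 counts or fewer. For Insig1 the log2 fold change was -1.37 ± 0.51 (SE; 95% interval -2.56 to -0.18, adjusted p = 0.257 by edgeR), or 2.58-fold lower in CAF.

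Srebf2 had 71.7, 34.5 and 25.6 CPM across the CAF libraries and 91.4, 48.1 and 91.3 CPM across the normal libraries. CAF library 1 lay above normal library 2, so the groups overlapped (log2 fold change -0.86 with an SE of 0.47, adjusted p = 0.457 by edgeR). Srebf1 had 105, 69.0 and 79.3 CPM across the CAF libraries and 114, 84.9 and 123 CPM across the normal libraries, and its log2 fold change was -0.35 with an SE of 0.31 (adjusted p = 0.676 by edgeR). For both genes CAF library 1 was the highest of its group and normal library 2 the lowest of its group. Srebf1 took 59.5%, 66.7% and 75.6% of the counts of the Srebf pair in CAF libraries 1 to 3 compared with 55.6%, 63.8% and 57.3% in normal libraries 1 to 3. The group means, 67.3% ± 8.07 in CAF and 58.9% ± 4.35 in normal fibroblasts (SD, n = 3 each), differed with p = 0.2 by an exact two-sided permutation test (0.6 adjusted over 3 pairs), whose smallest possible p is 0.1. Rai1 lies on the opposite strand at the 3′ end of Srebf1, and reads of the pair cannot be told apart without strand. Stard4, a carrier of cholesterol between membranes, had 12.6 ± 3.19 CPM in CAF, against 10.3 ± 8.88 CPM in normal fibroblasts, with 1 count in normal library 3.

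**Figure D2:**
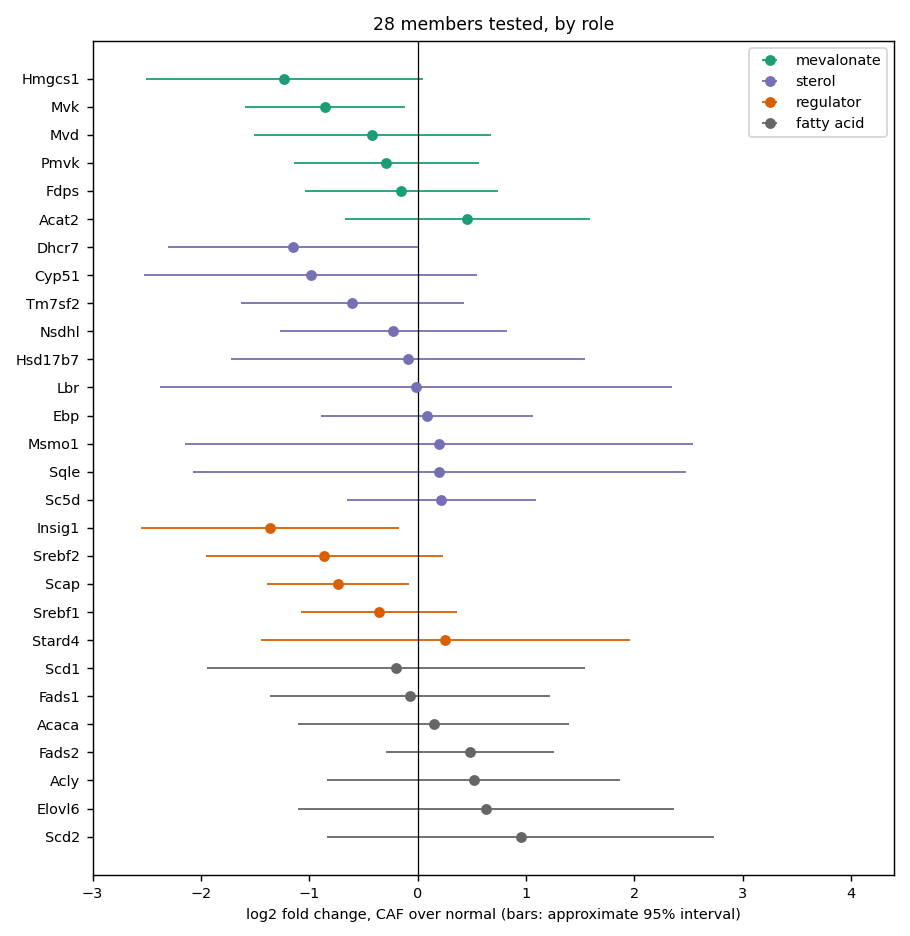
Log2 fold change of CAF over normal for the 28 tested members, grouped by role, with approximate 95% intervals from the edgeR fit. The intervals of Mvk, Insig1, Scap and Dhcr7 lie below 0 before adjustment, and those of the fatty acid genes all include 0.

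Among the genes from squalene to cholesterol, 0 of 10 tested members passed, 6 had a negative and 4 a positive fold change, and the median was -0.05. Dhcr7, the reductase of the last step (chromosome 7, 143823145 to 143848410), had 23.4, 8.97 and 9.6 CPM across the CAF libraries, against 36.3, 21.5 and 27.5 CPM across the normal libraries. CAF libraries 2 and 3 were below all normal libraries and CAF library 1 was just above normal library 2. The log2 fold change was -1.15 with an SE of 0.50 (adjusted p = 0.325 by edgeR), and it reached -1.70 (adjusted p = 0.0254) without CAF library 1 and normal library 3. Cyp51, the lanosterol demethylase, had 2.93, 5.11 and 4.87 CPM in CAF and 6.53, 17.7 and 3.75 CPM in normal fibroblasts, where normal library 2 stood apart. Its log2 fold change was -0.99 with an SE of 0.66 (adjusted p = 0.561 by edgeR), and Akap9 lies antisense across its last 1000 bases, so that their reads cannot be told apart without strand.

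Sqle, the squalene epoxidase and a rate-setting step of the pathway (chromosome 15, 59315077 to 59331192), was low in CAF library 1 and normal library 3. It had 2.93, 19.7 and 21.0 CPM in CAF libraries 1 to 3 (2, 143 and 155 counts) compared with 19.2 and 20.3 CPM in normal libraries 1 and 2 (47 and 16 counts). In normal library 3 it had 0 counts, which allows a level of up to 3.75 CPM, the level of 3 counts. Values of CAF libraries 2 and 3 and of normal libraries 1 and 2 thus lay between 19.2 and 21.0 CPM, while CAF library 1 and normal library 3 lay well below them. Sqle had a log2 fold change of 0.20 ± 0.98 (SE; 95% interval -2.08 to 2.48, adjusted p = 0.955 by edgeR).

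Msmo1, an oxidase that removes methyl groups from the sterol ring, followed a like order with 7.32, 29.3 and 34.4 CPM across the CAF libraries and 20.8, 44.3 and 0 CPM across the normal libraries, where normal library 3 had 0 counts. Lbr, a sterol reductase that also anchors chromatin at the nuclear envelope and whose 3′ end Dnah14 overlaps on the opposite strand, had 0 counts in CAF library 1, which allows up to 4.39 CPM, and 13.7 and 13.9 CPM in CAF libraries 2 and 3. In normal libraries 1 to 3 Lbr had 7.75, 21.5 and 2.5 CPM. Both genes thus varied within the groups far more than between them, with log2 fold changes of 0.19 ± 1.01 and -0.01 ± 1.02 (SE). Tm7sf2, the reductase of the same step as Lbr, had 7.32, 10.9 and 9.47 CPM in CAF and 14.3, 10.1 and 18.8 CPM in normal fibroblasts. It was lowest of the 6 libraries in CAF library 1 and highest in normal library 3.

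Nsdhl and Hsd17b7, which act with Msmo1, had 12.4 ± 4.73 and 3.99 ± 2.23 CPM in CAF, against 15.1 ± 3.24 and 4.42 ± 2.9 CPM in normal fibroblasts (SD, n = 3 each). Ebp, the sterol isomerase, had 76.4 ± 10.1 CPM in CAF, against 71.9 ± 34.2 CPM in normal fibroblasts, and Sc5d, the sterol desaturase, had 36.2 ± 11.8 CPM in CAF, against 30.3 ± 6.77 CPM in normal fibroblasts. None of these 4 genes reached an adjusted p under 0.8, and their groups overlapped. Lss, the lanosterol synthase, did not pass the filter, with 1, 18 and 30 counts across the CAF libraries and 9, 4 and 3 across the normal libraries.

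**Figure D3:**
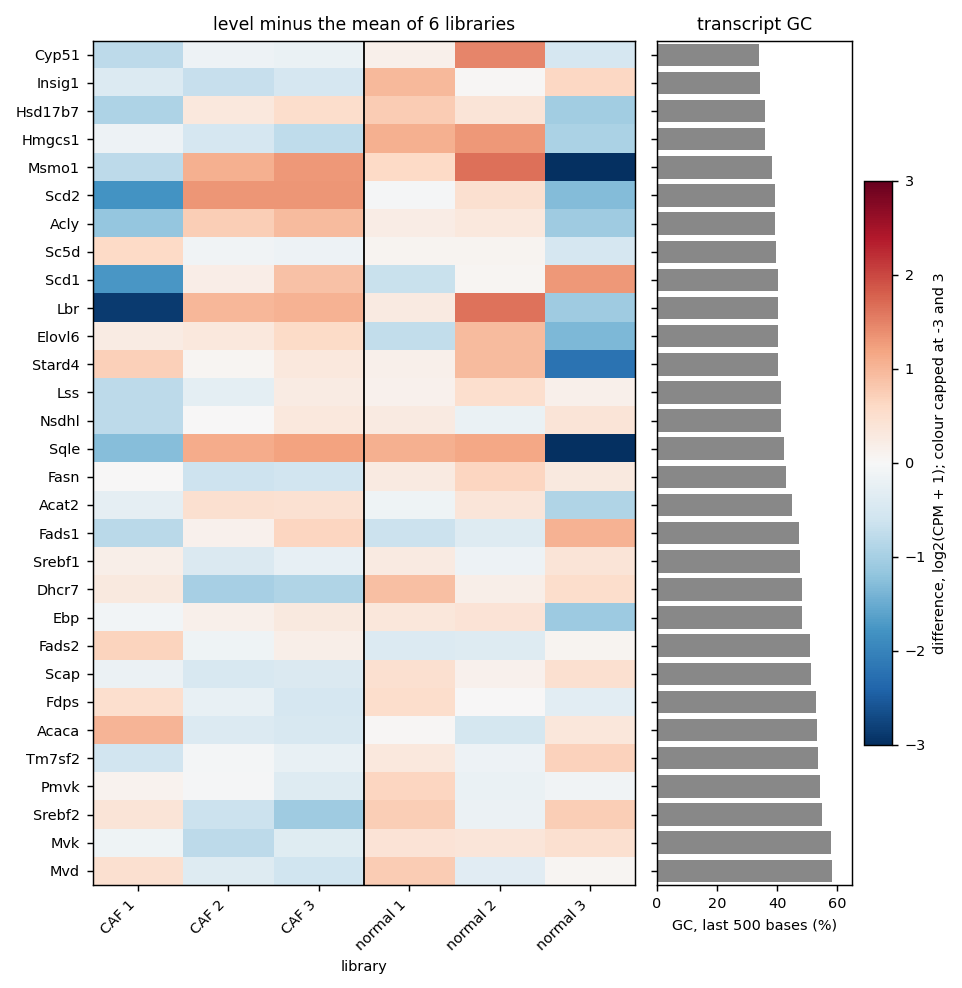
Level of each member in each library minus its mean over the 6 libraries, in log2(CPM + 1), with members ordered from low to high GC content of the last 500 bases of the transcript, which the grey bars give in percent. In CAF library 1 and normal library 3 most of the blue cells are in the upper, low-GC rows, with Sqle, Msmo1, Lbr and Scd2 among the deepest.

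The members did not move as 1 block across libraries, and their order within a library followed GC content in part. Across the 30 members the rank correlation of the library's deviation with GC content was 0.52, -0.39 and -0.47 in CAF libraries 1 to 3 compared with 0.10, -0.62 and 0.44 in normal libraries 1 to 3, given as a description since members share a library and its depth. The 10 members of lowest GC content (34.0% to 40.2%) had a median deviation of -0.86, 0.26 and 0.69 across the CAF libraries and 0.24, 0.43 and -0.9999 across the normal libraries, in log2(CPM + 1). The 10 of highest GC content (48.4% to 58.4%) had 0.25, -0.30 and -0.40 across the CAF libraries and 0.45, -0.16 and 0.21 across the normal libraries. The part of GC content in any single gene's spread was not tested. Together the members took 0.109%, 0.128% and 0.139% of all raw counts, gland RNA included, in CAF libraries 1 to 3 compared with 0.104%, 0.115% and 0.108% in normal libraries 1 to 3. On the scaled CPM used for single genes, their sum was 1029, 1137 and 1208 across the CAF libraries and 1379, 1319 and 1038 across the normal libraries. The means of these sums, 1124 ± 90.3 in CAF and 1245 ± 182 in normal fibroblasts (SD, n = 3 each), thus lay the other way.

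The fatty acid genes were the group with most positive fold changes, 5 of 7 tested, with a median log2 fold change of 0.48 and 0 passing. Scd2, a desaturase that makes oleate and palmitoleate (chromosome 19, 44293674 to 44306864), had 24.9, 223 and 223 CPM in CAF libraries 1 to 3, against 86.5, 124 and 35.0 CPM in normal libraries 1 to 3. CAF libraries 2 and 3 were above and CAF library 1 below every normal library. Its log2 fold change was 0.95 ± 0.77 (SE; 95% interval -0.83 to 2.74, adjusted p = 0.641 by edgeR), and with the GC side of the library as a block it was -0.14. Without CAF library 1 and normal library 3 it was 1.08 and passed (adjusted p = 0.038 by edgeR).

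Scd1, the paralogue on the same chromosome (44394455 to 44407879), had 2, 102 and 171 counts across the CAF libraries and 18, 10 and 25 across the normal libraries. These were 2.93, 14.1 and 23.1 CPM in CAF, against 7.34, 12.7 and 31.3 CPM in normal fibroblasts, and the groups overlapped (log2 fold change -0.20 with an SE of 0.75, adjusted p = 0.943 by edgeR). The last 1000 bases of the Scd1 and Scd2 transcripts shared 0 words of 40 bases, so 3′ reads of this length would be told apart. Scd1 took 10.5%, 5.94% and 9.41% of the counts of the pair in CAF libraries 1 to 3, 7.83% and 9.26% in normal libraries 1 and 2 and 47.2% in normal library 3. The exact 95% interval in normal library 3 (25 of 53 counts) was 33.3% to 61.4%, above the upper bound in every other library, of which the highest was 33.1% in CAF library 1 (2 of 19 counts). In normal library 3 the adipocyte markers made up 0.00599% of counts (5 of 8 had a count) and the gland markers 4.17%, and their part in the share was not tested. The group means, 8.63% ± 2.39 in CAF and 21.4% ± 22.3 in normal fibroblasts (SD, n = 3 each), gave p = 0.6 by an exact two-sided permutation test (0.7 adjusted over 3 pairs).

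Fads2 and Fads1, the desaturases that open and continue the synthesis of polyunsaturated fatty acids, lie close to each other on chromosome 19 (10062765 to 10101746 and 10182888 to 10196877). Fads2 had 105, 60.3 and 74.3 CPM across the CAF libraries, against 49.8, 50.7 and 70.0 CPM across the normal libraries, and CAF library 2 was below normal library 3. Its log2 fold change of 0.48 with an SE of 0.33 (adjusted p = 0.576 by edgeR) was the one of smallest p among the fatty acid genes. Fads1 had 38.0, 73.4 and 106 CPM across the CAF libraries and 42.8, 50.7 and 140 CPM across the normal libraries, with the lowest and the highest value in CAF library 1 and normal library 3 (log2 fold change -0.07 with an SE of 0.56, adjusted p = 0.974 by edgeR). Fads1 took 26.5%, 54.9% and 58.8% of the counts of the Fads pair in CAF libraries 1 to 3 compared with 46.3%, 50.0% and 66.7% in normal libraries 1 to 3. The group means, 46.7% ± 17.6 in CAF and 54.3% ± 10.9 in normal fibroblasts (SD, n = 3 each), gave p = 0.7 by the same exact permutation test (0.7 adjusted over 3 pairs).

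**Figure D4:**
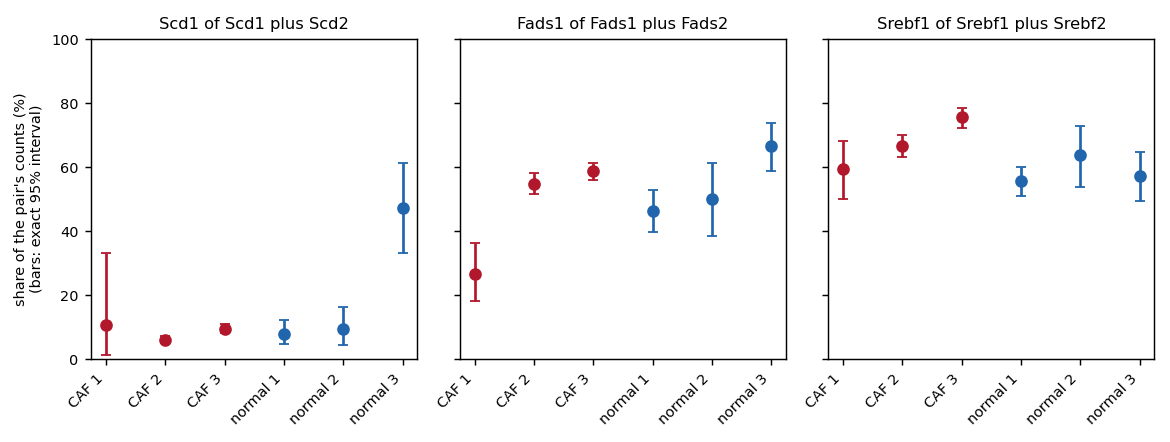
Share of the first gene in the counts of each pair (Scd1 with Scd2, Fads1 with Fads2, Srebf1 with Srebf2), in percent, for CAF libraries (red, left) and normal libraries (blue, right), with exact 95% binomial intervals that cover counting error only. Scd1 stands at 47.2% in normal library 3 and between 5.94% and 10.5% in the other libraries, and Fads1 is lowest in CAF library 1 at 26.5%.

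Acly, which splits citrate to acetyl-CoA for both pathways, had 30.7, 116 and 135 CPM across the CAF libraries and 80.8, 86.1 and 32.5 CPM across the normal libraries. Its low values were again in CAF library 1 and normal library 3 (log2 fold change 0.52 with an SE of 0.58, adjusted p = 0.753 by edgeR). Acaca, the acetyl-CoA carboxylase that commits carbon to fatty acids, ran the other way in CAF, with 42.4, 15.3 and 14.5 CPM in CAF libraries 1 to 3, against 21.2, 13.9 and 26.3 CPM in normal libraries 1 to 3 (log2 fold change 0.15 with an SE of 0.54, adjusted p = 0.939 by edgeR). Elovl6, the elongase of palmitate, had 5.85, 6.21 and 7.57 CPM in CAF and 2.45, 10.1 and 1.25 CPM in normal fibroblasts, where the values ran from 1 to 8 counts (log2 fold change 0.63 with an SE of 0.75, adjusted p = 0.767 by edgeR). Fasn, the fatty acid synthase, had 2, 11 and 12 counts across the CAF libraries and 9, 4 and 3 across the normal libraries and did not pass the filter. Its level was 2.02 ± 0.784 CPM in CAF, against 4.16 ± 0.783 CPM in normal fibroblasts (SD, n = 3 each). All CAF values were below all normal values, but this separation rests on few counts, with 2 in CAF library 1 and 3 in normal library 3. In fits without the filter its log2 fold change was -1.16 by edgeR (adjusted p = 0.453) and -1.23 by DESeq2 (adjusted p = 0.544).

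Of 3 lists of the surrounding pathways, 0 genes passed by edgeR or limma-voom, while DESeq2 called 0 genes of sterol regulation, 3 of other fatty acid synthesis and 5 of oxidation, in a fit in which it called 6.57% of all genes. Of 21 tested genes of sterol regulation, uptake, efflux and storage, 10 had a positive and 11 a negative fold change (median -0.09). The genes of smallest p were Mylip, a ubiquitin ligase that degrades lipoprotein receptors (log2 fold change -1.10 with an SE of 0.38, adjusted p = 0.225 by edgeR), and Apoe, the lipoprotein component, which had 535, 1365 and 1696 CPM across the CAF libraries against 279, 768 and 284 CPM across the normal libraries (1.44 with an SE of 0.59, adjusted p = 0.3 by edgeR). Of 24 tested genes of other fatty acid and triglyceride synthesis, 12 had a positive and 12 a negative fold change (median -0.03). Acacb, the mitochondrial acetyl-CoA carboxylase that limits fatty acid oxidation, had 5.85, 4.0 and 4.19 CPM across the CAF libraries, against 86.9, 74.7 and 8.75 CPM across the normal libraries (log2 fold change -3.69 with an SE of 0.79, adjusted p = 0.0737 by edgeR). Dgat2, which makes triglyceride, had 5.85, 13.4 and 8.25 CPM in CAF and 25.7, 46.9 and 27.5 CPM in normal fibroblasts (-1.78 with an SE of 0.46, adjusted p = 0.105 by edgeR).

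The fatty acid oxidation list leaned to one side, with a median log2 fold change of -0.98 and 0 called. A negative fold change was found at 18 of its 19 tested genes, against 4679 of all 10148 genes tested. At an unadjusted p under 0.05, 8 of the 19 were lower in CAF, and 7 lay below all normal libraries in all CAF libraries, against 7.97% and 9.35% of all genes. Hadhb, a subunit of the mitochondrial oxidation enzyme, had 26.3, 45.8 and 44.8 CPM across the CAF libraries and 128, 110 and 83.8 CPM across the normal libraries (log2 fold change -1.44 with an SE of 0.34, adjusted p = 0.0887 by edgeR). Eci1, an isomerase of the same pathway, had 41.0, 50.7 and 67.6 CPM across the CAF libraries and 243, 279 and 78.8 CPM across the normal libraries (-1.90 with an SE of 0.50, adjusted p = 0.109 by edgeR). The high values of Acacb and Eci1 were in normal libraries 1 and 2. The 6 parietal markers took 1.08% and 1.64% of counts there. Their share was 0.057% in normal library 3 and 0.0108% to 0.0554% across the CAF libraries. Chief, enteroendocrine, pit and neck, and squamous forestomach markers also took their highest shares in normal libraries 1 and 2. General epithelial markers did not follow this order, with 0.299%, 0.139% and 0.144% across the CAF libraries and 0.396%, 0.236% and 0.114% across the normal libraries. For them CAF library 1 lay above normal library 2, and normal library 3 was the lowest. For Acacb and Eci1 normal library 3 lay above every CAF library. It had 8.75 against at most 5.85 CPM of Acacb and 78.8 against at most 67.6 CPM of Eci1. These Acacb values rest on 7 counts in normal library 3 and 4 counts in CAF library 1, too few to tell the 2 libraries apart. The part of gland or other epithelial RNA in the Acacb and Eci1 values, and in the lean of the oxidation list, was not tested.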

How the data were processed

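RNA of 6 libraries, 3 CAF and 3 normal, was analysed from 1 deposited table. Per the submitters' processing notes the reads were handled with cutadapt, STAR, HTSeq and DESeq2 (no versions) on build mm10. Not given in the sources used here are the annotation, the use of strand and the collapsing of molecular identifiers. The raw counts per gene symbol deposited by the authors were tested. Their normalized signal (count over 1 size factor per library, per the file headers and values) served as a check, their regularized log2 values were not used, and their p-value columns are quoted as the authors' deposited table. All 14228 genes had at least 6 counts in some library.

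Counts were fitted with edgeR 4.0.16 in R 4.3.3 (filterByExpr, trimmed-mean-of-M scaling, glmQLFit and glmQLFTest on the group term, Benjamini-Hochberg over 10148 genes, threshold 0.05). Approximate standard errors and 95% intervals follow from each fold change with its F value. Each library held its own mouse or pair of mice. Shares of gene pairs were compared with exact permutation tests (scipy 1.17.1). The exact intervals of shares and the limits of 3 counts cover counting error only. Member positions and 3′ sequences came from GENCODE M21 (GRCm38) and promoters from RefSeq. The code was tested on simulated data.

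Members and lists were chosen with earlier results of these data known. Per-library values are given for the 10 members of smallest p and for a set of regulators and rate-setting or paralogous enzymes, and for other lists the 2 genes of smallest p are named. Per-library values of Msmo1 and Lbr were added after their values were seen. Alternatives were DESeq2 1.42.0, limma-voom (limma 3.58.1), other scalings and filters, removal of gland and ribosomal protein genes, a covariate for the mice pooled, and libraries left out. The GC side as a block and the fit without CAF library 1 and normal library 3 were chosen after seeing the data.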

Additional observations from a re-analysis of the deposited data

How the results depend on the processing

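No paired analysis was possible because the labels give the groups no shared replicate numbers. Over 17 alternatives, 11 of 28 members kept the sign of their fold change, among them Mvk, Scap, Insig1, Dhcr7, Srebf2, Srebf1 and Fads2, and 5 of 460 member fits passed the threshold (Hmgcs1 in 2, Mvk, Dhcr7 and Scd2). The cause of the changes below was not tested. All genes called, 112 at first, came to 935 by DESeq2, 65 by limma-voom, 0 without normal libraries 1 and 2 and 2398 without CAF library 1 and normal library 3, and from 0 (without normal library 1) to 1193 (without normal library 3) with 1 library left out. Members called came to 4 without CAF library 1 and normal library 3, and to 0 to 1 with 1 library left out. In the lists of sterol regulation, of other fatty acid synthesis and of oxidation, 0, 3 and 5 genes were called by DESeq2, 5, 9 and 11 without CAF library 1 and normal library 3, and at most 1, 4 and 8 (at least 0 each) with 1 library left out. Members without overlap, 3 at first, came to 18 without normal libraries 1 and 2, where 1 normal library is left, to 18 without CAF library 1 and normal library 3, and to 2 to 10 with 1 library left out. Over all genes tested, 19.9% had no overlap at first, 59.7% and 64.2% in those fits, and 23.1% to 40.6% with 1 library left out, and the 18 members were 64.3% of the 28. The median of the members was 0.14 and -0.32 in those fits, and -0.40 (without normal library 3) to 2.9e-05 (without normal library 1) with 1 library left out. The difference in the Fads1 share was 8.73 percentage points without CAF library 1 and normal library 3, and -13.6 to 2.55 with 1 library left out (the positive end without CAF library 1). The difference in the Scd1 share was -19.6 to 0.084, turning without normal library 3. The Srebf1 share kept its sign throughout.

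Turned signs of log2 fold changes were as follows. Without normal libraries 1 and 2 they were 0.54 for Hmgcs1, 0.064 for Pmvk, 0.33 for Fdps, 0.36 for Cyp51, 2.11 for Lbr, 1.90 for Hsd17b7 and -0.18 for Acaca. Without CAF library 1 and normal library 3 they were 0.046 for Lbr, 0.045 for Nsdhl, -0.18 for Ebp, -0.24 for Sc5d, -0.37 for Stard4, -0.31 for Acaca, 0.98 for Scd1 and 0.93 for Fads1. With the GC side as a block they were -0.61 for Sqle, -0.57 for Msmo1, -0.062 for Ebp, -0.13 for Acly and -0.14 for Scd2. By limma-voom they were 0.54 for Lbr, -0.29 for Acaca, 0.48 for Scd1 and 0.16 for Fads1. With a covariate for the pooled mice they were 0.079 for Fdps and 0.040 for Hsd17b7. Lbr was also 0.0044 with upper-quartile factors, 0.0091 without a filter and 0.025 with 10 counts in 3 libraries. With 1 library left out, members that turned ran from -0.49 to 0.035 (Pmvk), -0.48 to 0.088 (Fdps), -0.36 to 0.58 (Sqle), -0.46 to 0.85 (Lbr), -0.39 to 1.06 (Msmo1), -0.51 to 0.12 (Hsd17b7), -0.32 to 0.29 (Ebp), -0.053 to 0.36 (Sc5d), -0.29 to 0.87 (Stard4), -0.46 to 0.44 (Acaca), -0.80 to 0.54 (Scd1) and -0.43 to 0.61 (Fads1). Members of few counts, such as Insig1, Cyp51 and Hsd17b7, fell below the filter in some fits, and depth limits Lss and Fasn most.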
